A study of Mus musculus with 6 samples.

Results

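The set described here comprised 40 genes chosen by symbol: 6 tubulins, 8 structural microtubule-associated proteins and doublecortins, 4 stathmins, 5 collapsin response mediator proteins (CRMPs), 4 kinesins, 5 plus-end and dynein regulators, 4 growth cone membrane proteins and 4 axonal adhesion molecules. All 40 were found among the 27179 genes measured, and all 40 had a mean of at least 1 CPM (read counts scaled to library size), so none was lost to the filter that left 13885 genes for testing. RNA was sequenced from cerebral cortex of E18.5 mouse embryos of strain C57BL/6N. The CAP1-KO group (libraries FCRE3, FCRE4 and FCRE5) had the genotype Cap1flx/flx,Nestin-CRE, and the Control group (FF1, FF2 and FF4) was Cap1 flx/flx. Both groups thus carried the loxP-flanked Cap1 alleles, and no group carried Cre alone, so effects of the transgene and of Cap1 loss cannot be told apart. Nestin-Cre acts in neural progenitors and their descendants, which leaves Cap1 in place in cells of other origin such as vessels and microglia.

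Microtubules are polymers of alpha- and beta-tubulin that fill the shaft of the axon and reach into the growth cone, the motile tip of a growing axon. Stathmins hold free tubulin dimers, structural microtubule-associated proteins stabilise the polymer, plus-end proteins steer its growing end, and kinesins and dynein carry cargo along it. CAP1 belongs to the other filament system of the growth cone, actin, which it helps to turn over. GAP43 binds the inner face of the growth cone membrane, and adhesion molecules of the L1 and NCAM families link the growth cone to its surroundings.

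Near-identical tubulins set a limit on which genes can be told apart by their reads, and the last 60 coding bases of a close pair of beta-tubulins are shown for that reason (GENCODE M21 transcripts on GRCm38, read 5′ to 3′, stop codon included). Capitals mark bases that differ within the pair.
Tubb2a: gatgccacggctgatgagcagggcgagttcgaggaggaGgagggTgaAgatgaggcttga
Tubb2b: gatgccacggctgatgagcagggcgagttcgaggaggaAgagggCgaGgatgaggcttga
This stretch encodes the acidic tail that modifying enzymes act on. The 2 beta-tubulins, both on chromosome 13 (Tubb2a at chr13:34074278-34078008, Tubb2b at chr13:34127008-34130354), differed at 3 of the 60 bases and at 47 of 1338 coding bases. Of all windows of 50 bases in the main transcript, 49.6% in Tubb2a, 39.3% in Tubb2b, 72.9% in Tuba1a and 73.8% in Tuba1b also occurred in a transcript of another gene. In Stmn1 that share was 36.5%, mostly with the annotated gene Gm11223, and in the other 35 members it was at most 1.61%. How reads of shared sequence were counted is not given in the sources used here, so the levels of those 5 genes are uncertain.

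The first 90 coding bases of the stathmins are shown because the gene that passed the test, Stmn4, belongs to the membrane-bound branch of the family. Capitals mark cysteine codons in frame, the residues that carry the lipid anchor in this branch.
Stmn1: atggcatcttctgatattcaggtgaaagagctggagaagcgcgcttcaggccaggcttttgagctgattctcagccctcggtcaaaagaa
Stmn2: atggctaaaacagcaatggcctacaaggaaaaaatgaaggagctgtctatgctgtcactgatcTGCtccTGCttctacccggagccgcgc
Stmn3: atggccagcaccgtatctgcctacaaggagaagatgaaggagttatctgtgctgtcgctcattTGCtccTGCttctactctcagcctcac
Stmn4: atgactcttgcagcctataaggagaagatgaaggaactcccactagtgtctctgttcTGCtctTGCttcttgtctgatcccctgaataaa
Stmn4 lies at chr14:66344210-66361680 (GRCm38). Stmn2, Stmn3 and Stmn4 each had 2 cysteine codons in this stretch and Stmn1 had 0. Over the whole coding sequence Stmn4 was identical to Stmn1 at 53.8% of aligned bases, to Stmn2 at 63.0% and to Stmn3 at 62.6%, and none of its 50-base windows occurred in another gene.

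Recovered depth lay between 33509504 and 36302598 reads in the CAP1-KO libraries and between 32443864 and 35229159 reads in the Control libraries, so a level of 1 CPM stood on 31.2 to 37.3 reads. Cap1, the targeted gene, measured 86.6, 85.9 and 82.9 CPM in CAP1-KO cortex, against 194, 193 and 166 CPM in Control cortex. Here and below, values are given in the order FCRE3, FCRE4 and FCRE5 for CAP1-KO and FF1, FF2 and FF4 for Control. Cap1 was lower throughout CAP1-KO, with no overlap between groups and a log2 fold change of -1.10 (SE 0.068; limma, p adjusted by Benjamini-Hochberg, 0.000283). Among the Control libraries FF4 stood apart: over genes with at least 20 reads in a pair, chi-square per gene was 23.9 between FF1 and FF4 and 31.5 between FF2 and FF4, against 8.71 between FF1 and FF2 and 5.54 to 10.8 within CAP1-KO. Xist, which coats the inactive X in female cells, measured 2605, 2398 and 2653 CPM in CAP1-KO cortex, against 0.577, 2296 and 2.05 CPM in Control cortex. Thus FF2 was the only Control library with Xist near the CAP1-KO level. Results that rest on FF4 or on Xist are given below with and without them. Layer-specific projection neuron markers of the cortex were detected in every library. The labels name 3 biological replicates per genotype, without their litters.

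One of the 40 genes passed the test in CAP1-KO against Control, the stathmin Stmn4, which rose, and 0 fell (limma on log2(CPM + 1), adjusted p under 0.05 over all 13885 genes). Of all genes tested 0.965% passed, 0.562% higher and 0.403% lower. Limma-voom on recovered reads gave the same counts for the 40, and the authors' deposited table had 1 higher and 0 lower at an FDR under 0.05. At an unadjusted p under 0.05, 11 of the 40 were lower and 2 higher, where 15.3% and 7.74% of all genes tested were, 23.0% in all. The log2 fold change was negative in 32 of 40 (80%), against 51.7% of all genes tested. Its median was -0.094 over the 40 and -0.0059 over all genes tested. CAP1-KO and Control libraries did not overlap for 17 of the 40, with CAP1-KO lower in 14 (35%, against 14.6% of all genes tested) and higher in 3 (7.5%, against 11.1%). The 40 averaged at least 69.3 CPM, while genes with a mean from 1 CPM were tested. Shares of all genes tested, here and below, are therefore not matched for level. For 36 of the 40 the 95% interval of the log2 fold change lay within 0.5 of 0. The exceptions were Map1a, Dpysl5, Kif21b and Cntn2, whose intervals reached further below 0. In whole cortex, fewer cells of a type and less RNA per cell cannot be told apart.

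**Figure D1:**
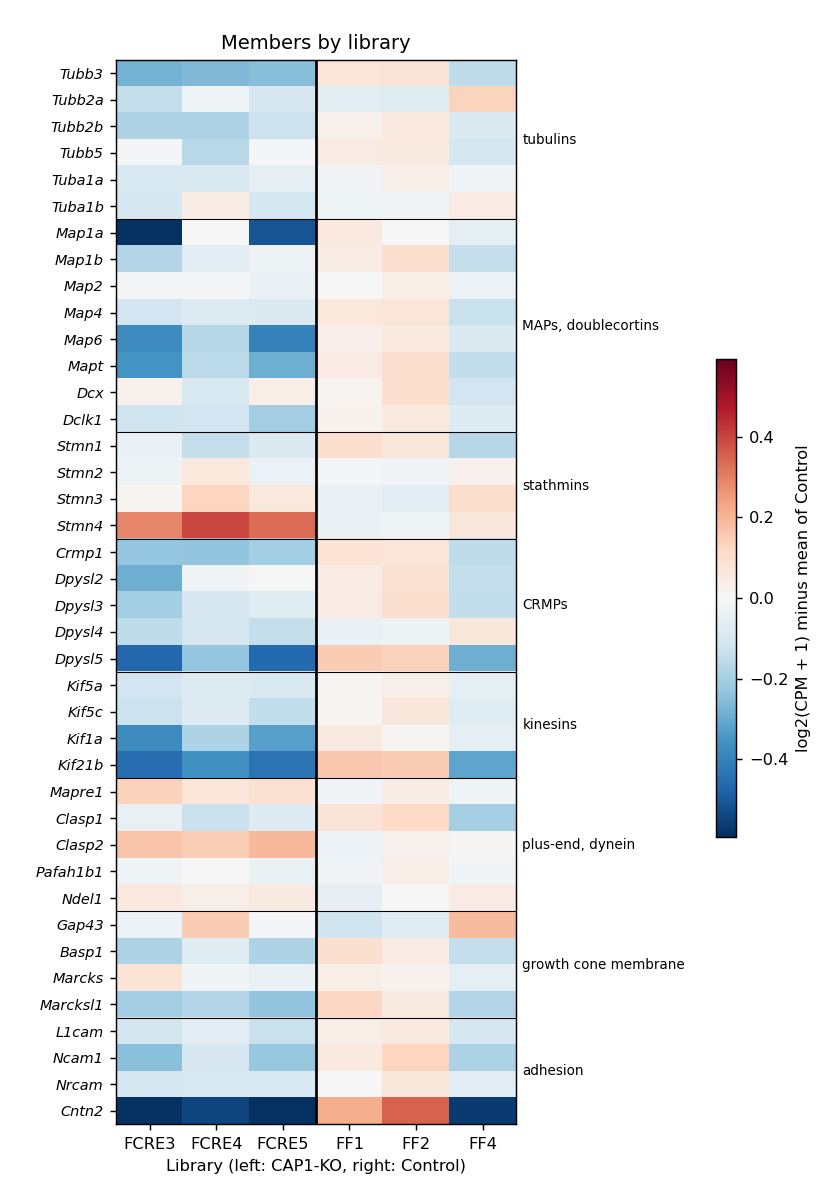
Heat map of the 40 genes (rows, grouped by role) in the 6 libraries (columns, CAP1-KO left of Control), coloured by log2(CPM + 1) minus the mean of the 3 Control libraries. Stmn4 is red in all CAP1-KO libraries, and Cntn2, Kif21b and Dpysl5 are blue in all CAP1-KO libraries and in the Control library FF4.

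**Figure D2:**
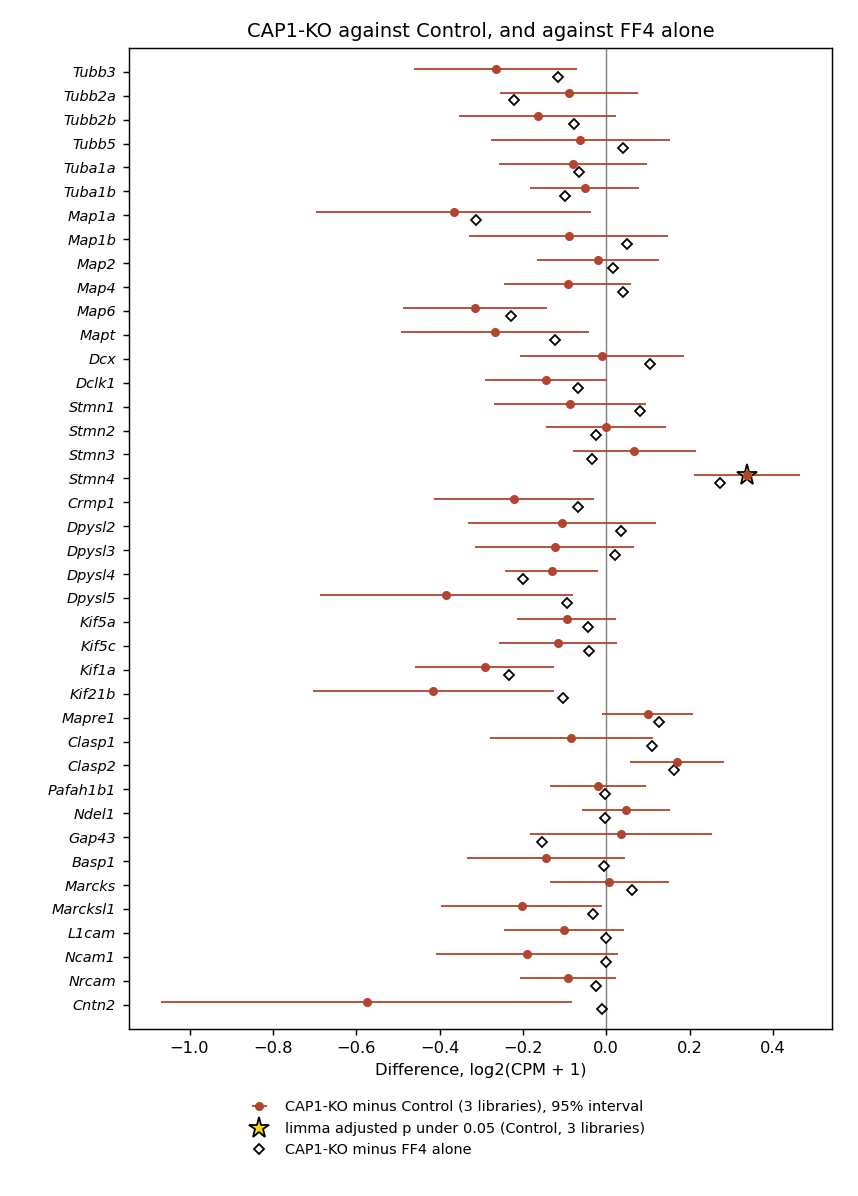
Log2 fold changes of the 40 genes. Filled circles and bars give CAP1-KO minus Control with the 95% interval of limma, open diamonds give CAP1-KO minus FF4 alone, and the star marks Stmn4, the gene past an adjusted p of 0.05. For Cntn2 the circle lies at -0.58 and the diamond at -0.0092.

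Tubulin genes took the first 4 places of the set in level per kilobase of exon, and 0 of the 6 passed the test (limma; 1 was lower at an unadjusted p under 0.05, against 15.3% of all genes tested). Tubb3, the neuronal beta-tubulin, measured 1773, 1792 and 1805 CPM in CAP1-KO cortex, against 2261, 2271 and 1940.3 CPM in Control cortex. The CAP1-KO libraries were close together and below every Control library, of which FF4 was the lowest. Its log2 fold change was -0.27 (95% interval -0.46 to -0.070, limma adjusted p = 0.132). Tubb2b, the beta-tubulin of migrating and growing neurons, measured 2756, 2762 and 2867 CPM in CAP1-KO cortex, against 3191, 3261 and 2950.5 CPM in Control cortex. Again the groups did not overlap, with a log2 fold change of -0.16 (95% interval -0.35 to 0.024, limma adjusted p = 0.27). Tubb2a, its close relative, measured 552, 599 and 569 CPM in CAP1-KO cortex, against 584, 580.4 and 668 CPM in Control cortex. Here FF4 was the highest of all 6 libraries and the groups overlapped (-0.090, limma adjusted p = 0.485). Tubb5, a beta-tubulin of neurons and dividing cells, measured 3315, 2978 and 3307 CPM in CAP1-KO cortex, against 3454, 3466 and 3106 CPM in Control cortex. Its groups overlapped and the log2 fold change was -0.063 (limma adjusted p = 0.722). Tuba1a, the main alpha-tubulin of developing neurons, measured 3068, 3072 and 3138 CPM in CAP1-KO cortex, against 3227, 3343 and 3235 CPM in Control cortex, without overlap between the groups (-0.079, limma adjusted p = 0.569). Tuba1b, another alpha-tubulin, measured 67, 74.1 and 66.7 CPM in CAP1-KO cortex, against 70.4, 70.7 and 74.2 CPM in Control cortex. Its groups overlapped (-0.052, limma adjusted p = 0.614).

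Per kilobase of annotated exon (RPKM), which allows levels of different genes to be set side by side, Tuba1a was the highest of the 40 at 1715 ± 21.8 RPKM in CAP1-KO and 1813 ± 35.9 RPKM in Control (mean ± SD, n = 3 each). Next came Tubb2b at 1281 ± 28.6 RPKM in CAP1-KO and 1436 ± 74.7 RPKM in Control and Tubb5 at 1208 ± 72.6 RPKM in CAP1-KO and 1262 ± 77.2 RPKM in Control, which differed in CAP1-KO by less than the sum of their SDs. Tubb3 followed at 958 ± 8.67 RPKM in CAP1-KO and 1155 ± 101 RPKM in Control. The lowest was Map1a, at 14.3 ± 3.39 RPKM in CAP1-KO and 18.2 ± 0.698 RPKM in Control. As a share of all beta-tubulin mRNA per length, Tubb3 made up 23.8%, 24.6% and 23.8% in FCRE3, FCRE4 and FCRE5, against 26.6%, 26.5% and 24.9% in FF1, FF2 and FF4. Tubb5 made up 30.3% ± 1.32 in CAP1-KO and 28.5% ± 0.279 in Control, and Tubb2b 32.2% ± 0.415 in CAP1-KO and 32.4% ± 0.248 in Control (SD, n = 3 each). All CAP1-KO libraries were below all Control libraries in the Tubb3 share and above them in the Tubb5 share. The summed beta-tubulin level was 3984, 3897 and 4063 RPKM in FCRE3, FCRE4 and FCRE5, against 4550.1, 4580.4 and 4168 RPKM in FF1, FF2 and FF4. Shares of the near-identical Tubb2a and Tubb2b depend on how their common reads were counted.

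**Figure D3:**
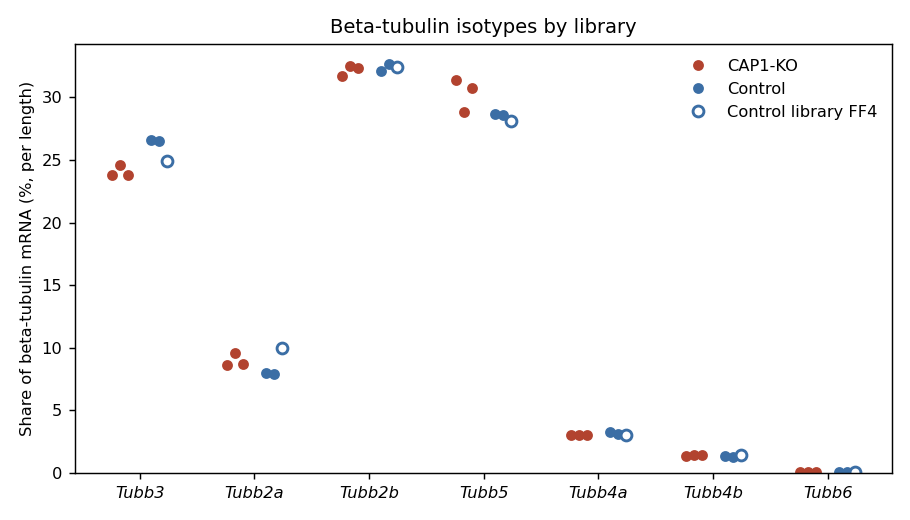
Share of each beta-tubulin gene in the summed beta-tubulin mRNA per kilobase of exon (%), by library. CAP1-KO points stand left of Control points and the open circle is FF4. Tubb3 lies between 23.8% and 24.6% in CAP1-KO and between 24.9% and 26.6% in Control.

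Stmn4, which encodes the neuronal stathmin RB3, was the gene of the set that rose. It measured 500.5, 539 and 515 CPM in CAP1-KO cortex, against 398, 403 and 429 CPM in Control cortex. Every CAP1-KO library was above every Control library, and FF4 was the highest of the Control libraries. The group means were 518 ± 19.6 CPM in CAP1-KO and 410.0 ± 16.4 CPM in Control (SD, n = 3 each), a log2 fold change of 0.34 (SE 0.055, 95% interval 0.21 to 0.47, limma adjusted p = 0.039). In the authors' deposited table its log2 fold change was 0.34 with an FDR of 0.0411. The call depended on single libraries: the adjusted p was 0.222 without FF1, 0.188 without FF2, 0.123 without FCRE3, 0.0654 without FCRE4, 0.219 without FCRE5 and 0.000674 without FF4. The log2 fold change stayed between 0.27 and 0.40 in all 16 alternatives, of which 8 kept the call. Its relatives showed no such difference past the threshold. Stmn2, also called SCG10, measured 1272, 1355 and 1268 CPM in CAP1-KO cortex, against 1289, 1283 and 1320.1 CPM in Control cortex, with groups that overlapped and a log2 fold change of 0.00023 (95% interval -0.14 to 0.14, limma adjusted p = 0.999). Stmn3 measured 466, 505 and 482 CPM in CAP1-KO cortex, against 449, 442 and 496 CPM in Control cortex (0.068, 95% interval -0.079 to 0.21, limma adjusted p = 0.557). Stmn1, the cytosolic stathmin, measured 437, 406 and 423 CPM in CAP1-KO cortex, against 481, 470.2 and 399 CPM in Control cortex (-0.088, limma adjusted p = 0.538). In both genes the value of FF4 fell within or beyond the CAP1-KO range.

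Structural microtubule-associated proteins and doublecortins all had a negative log2 fold change, 8 of 8, against 51.7% of all genes tested. Dcx (-0.0096) and Map2 (-0.020) were near 0. None of the 8 passed the test (limma), and 3 were lower at an unadjusted p under 0.05, against 15.3% of all genes tested. Against FF4 alone, 4 of the 8 log2 fold changes were negative and 4 positive. Map6, which makes microtubules resistant to cold, measured 274, 316 and 269 CPM in CAP1-KO cortex, against 362, 369.8 and 335 CPM in Control cortex. The groups did not overlap, and the log2 fold change was -0.31 (95% interval -0.49 to -0.14, limma adjusted p = 0.0919). Mapt, which encodes the axonal protein tau, measured 2202, 2518 and 2300.0 CPM in CAP1-KO cortex, against 2904, 3009.7 and 2543 CPM in Control cortex. The highest CAP1-KO library, FCRE4, came close to the lowest Control library, FF4 (-0.27, limma adjusted p = 0.163). Map1a, which accumulates as neurons mature, measured 144, 217 and 151 CPM in CAP1-KO cortex, against 225, 216 and 209 CPM in Control cortex. FCRE3 and FCRE5 lay well below the Control libraries while FCRE4 lay among them. The log2 fold change of Map1a was -0.37 (95% interval -0.70 to -0.036, limma adjusted p = 0.179), and without FCRE4 it was -0.55 with an adjusted p of 0.0152. Without FCRE4 Map6 also passed, at -0.39 with an adjusted p of 0.0446.

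The remaining genes of this role had smaller differences. Map1b, the early axonal relative of Map1a, measured 3829.8, 4118 and 4237 CPM in CAP1-KO, against 4452, 4626 and 3917 CPM in Control (-0.091, limma adjusted p = 0.631). Map2, of dendrites and cell bodies, measured 1620.1, 1622 and 1587 CPM in CAP1-KO, against 1628, 1678 and 1591 CPM in Control (-0.020, 95% interval -0.17 to 0.13). Map4, found in most cell types, measured 428, 439.8 and 437 CPM in CAP1-KO, against 484, 488 and 423 CPM in Control (-0.093). All 3 had overlapping groups. Dcx, the X-linked doublecortin of migrating neurons, measured 2035, 1875 and 2050.5 CPM in CAP1-KO, against 2019.8, 2143 and 1844 CPM in Control (-0.0096, 95% interval -0.21 to 0.19, limma adjusted p = 0.959). Its relative Dclk1 measured 874, 876 and 821 CPM in CAP1-KO, against 960.4, 985 and 899 CPM in Control, with no overlap between groups (-0.14, 95% interval -0.29 to 0.0014, limma adjusted p = 0.22).

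CRMPs, cytosolic proteins that bind tubulin dimers and relay guidance signals to the growth cone, all had a negative log2 fold change (5 of 5, against 51.7% of all genes tested). None of the 5 passed (limma), and 3 were lower at an unadjusted p under 0.05, against 15.3% of all genes tested. Against FF4 alone, 3 of the 5 log2 fold changes were negative and 2 positive. Dpysl5, which encodes CRMP5, measured 993, 1168 and 996 CPM in CAP1-KO cortex, against 1522, 1505 and 1121 CPM in Control cortex. FF4 lay within the CAP1-KO range, far below FF1 and FF2. The log2 fold change was -0.38 (95% interval -0.69 to -0.080, limma adjusted p = 0.147). Crmp1 measured 1508, 1501 and 1539 CPM in CAP1-KO cortex, against 1869, 1858 and 1590.3 CPM in Control cortex, with the groups apart (-0.22, limma adjusted p = 0.169). Dpysl4, another CRMP, measured 99.7, 104 and 100.4 CPM in CAP1-KO cortex, against 108, 109 and 116 CPM in Control cortex. It too had no overlap, and here FF4 was the highest library (-0.13, 95% interval -0.24 to -0.020, limma adjusted p = 0.163). Dpysl2, which encodes CRMP2, averaged 647 ± 69.7 CPM in CAP1-KO and 695 ± 58.2 CPM in Control (-0.11), and Dpysl3, which encodes CRMP4, averaged 1097 ± 51 CPM in CAP1-KO and 1198 ± 104 CPM in Control (-0.12). Neither passed, and both had overlapping groups.

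Kinesins were the one role of the set in which CAP1-KO lay below Control without overlap in every gene, 4 of 4, against 14.6% of all genes tested. This did not extend to the other kinesin and dynein genes listed below. Of those, 7 of 31 were lower without overlap, and 11 of the 31 had a positive log2 fold change. None of the 4 passed the test, which 0.403% of all genes passed lower (limma), and 2 were lower at an unadjusted p under 0.05, against 15.3%. Kif21b, a kinesin that also restrains microtubule growth, measured 694, 741 and 701 CPM in CAP1-KO cortex, against 1059.6, 1054 and 765 CPM in Control cortex. FF4 was the lowest Control library by a wide margin and stood just above FCRE4. Its log2 fold change was -0.41 (95% interval -0.70 to -0.12, limma adjusted p = 0.121). Kif1a, the carrier of synaptic vesicle precursors, measured 906, 1032 and 938 CPM in CAP1-KO cortex, against 1217, 1177 and 1125 CPM in Control cortex. In this gene FF4 stayed near FF1 and FF2 (-0.29, 95% interval -0.46 to -0.13, limma adjusted p = 0.0946). Kif5a and Kif5c encode heavy chains of conventional kinesin in neurons. Kif5a measured 584, 599.9 and 594 CPM in CAP1-KO, against 641, 648 and 611 CPM in Control (-0.095, limma adjusted p = 0.31). Kif5c measured 828, 858 and 819 CPM in CAP1-KO, against 909.8, 948 and 860.2 CPM in Control (-0.12, limma adjusted p = 0.295). Each CAP1-KO library was lower than each Control library in both, though in Kif5c FCRE4 was only just below FF4.

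Among plus-end proteins and dynein regulators 3 of 5 had a positive log2 fold change, and 0 passed the test (limma; 1 was higher at an unadjusted p under 0.05, against 7.74% of all genes tested). Clasp2, a factor that rescues shrinking microtubules and anchors them at the cell edge, measured 598, 588 and 607 CPM in CAP1-KO cortex, against 519, 540.4 and 534 CPM in Control cortex. All CAP1-KO libraries were above all Control libraries, FF4 included, and the log2 fold change was 0.17 (95% interval 0.056 to 0.28, limma adjusted p = 0.114). Its paralog Clasp1 measured 314, 295 and 307 CPM in CAP1-KO cortex, against 341, 351 and 282 CPM in Control cortex. There the CAP1-KO libraries lay between FF4 and the other Control libraries (-0.084, limma adjusted p = 0.586). Mapre1, which encodes the plus-end tracking protein EB1, measured 384, 367 and 371 CPM in CAP1-KO cortex, against 345, 359 and 343 CPM in Control cortex, again with CAP1-KO above Control in every library (0.10, 95% interval -0.0099 to 0.21, limma adjusted p = 0.253). The dynein regulators Pafah1b1, which encodes LIS1, and Ndel1 had overlapping groups. Pafah1b1 averaged 591 ± 8.74 CPM in CAP1-KO and 599.5 ± 14.4 CPM in Control (-0.020, 95% interval -0.14 to 0.095). Ndel1 averaged 74 ± 0.637 CPM in CAP1-KO and 71.6 ± 2.51 CPM in Control (0.047, 95% interval -0.058 to 0.15).

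Growth cone membrane proteins bind the inner face of the plasma membrane and are substrates of protein kinase C, and 0 of 4 passed the test (limma; 1 was lower at an unadjusted p under 0.05, against 15.3% of all genes tested). Gap43 measured 689, 783 and 703 CPM in CAP1-KO cortex, against 651, 671 and 805 CPM in Control cortex. FF4 held the highest value of all and the groups overlapped (0.036, 95% interval -0.18 to 0.25, limma adjusted p = 0.849). Basp1 measured 1210.4, 1308 and 1210.3 CPM in CAP1-KO cortex, against 1466, 1417 and 1247 CPM in Control cortex, with the reverse order among Control libraries (-0.14, limma adjusted p = 0.327). Marcksl1 measured 852, 868 and 832 CPM in CAP1-KO cortex, against 1065, 1015 and 869.6 CPM in Control cortex. CAP1-KO lay below Control in every library, but FF4 was only just above FCRE4 (-0.20, limma adjusted p = 0.198). Marcks averaged 939 ± 41.9 CPM in CAP1-KO and 934 ± 30.2 CPM in Control and its groups overlapped (0.0075, 95% interval -0.14 to 0.15).

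Adhesion molecules held the gene with the most negative log2 fold change of the set, but 0 of 4 passed the test (limma; 1 was lower at an unadjusted p under 0.05, against 15.3% of all genes tested). Cntn2, the contactin TAG-1 of early corticofugal axons, measured 638, 656 and 635 CPM in CAP1-KO cortex, against 1114, 1221 and 647 CPM in Control cortex. FF1 and FF2 were far above the other libraries, and FF4 lay within the narrow range of CAP1-KO. Its log2 fold change was -0.58 with a wide 95% interval of -1.07 to -0.081 (limma adjusted p = 0.166). Ncam1 measured 908, 1008 and 924 CPM in CAP1-KO cortex, against 1125, 1181 and 947 CPM in Control cortex, and FF4 was again within the CAP1-KO range (-0.19, limma adjusted p = 0.268). L1cam, an X-linked partner of Cntn2, measured 624, 645 and 613 CPM in CAP1-KO cortex, against 692, 701 and 628 CPM in Control cortex (-0.10, limma adjusted p = 0.367). Nrcam, its relative, measured 298, 300.2 and 300.1 CPM in CAP1-KO cortex, against 319, 335 and 305 CPM in Control cortex, and FF4 was the lowest Control library (-0.092, limma adjusted p = 0.313).

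**Figure D4:**
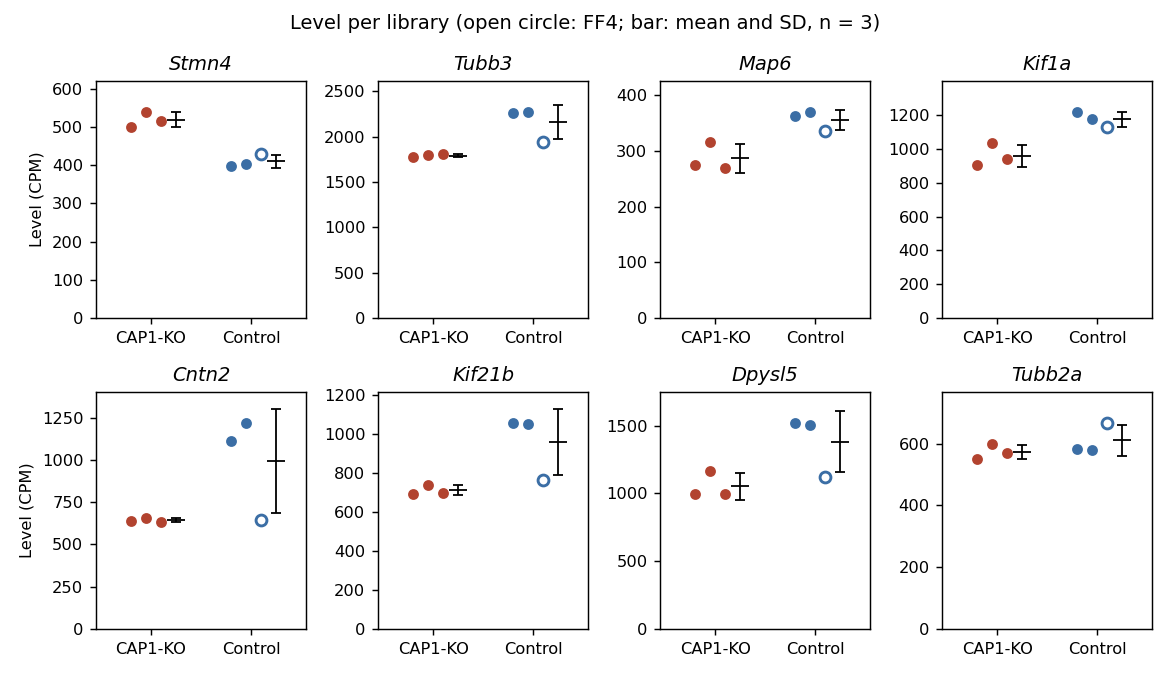
Level in CPM of 8 genes in each library, CAP1-KO left of Control, with the mean and SD beside the points (n = 3 each). The open circle is FF4. In Stmn4 the groups are apart, with the lowest CAP1-KO library at 500.5 CPM and the highest Control library at 429 CPM. In Cntn2, FF4 at 647 CPM sits at the level of CAP1-KO.

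The values for most of the set depended on which Control library was used. FF4 lay below both FF1 and FF2 in 29 of 40 genes (72.5%, against 48.4% of all genes tested) and above both in 8 (20%, against 34.7%). Those 8 were Tubb2a, Tuba1b, Stmn2, Stmn3, Stmn4, Dpysl4, Ndel1 and Gap43. The median difference of FF4 from the mean of FF1 and FF2 was -0.12 over the 40 and -0.03 over all genes tested. All CAP1-KO libraries were below both FF1 and FF2 in 27 of the 40 (67.5%, against 32.0%). They were below FF4 in 17 (42.5%, against 27.9%) and above it in 8 (20%, against 28.0%). FF4 itself fell within the CAP1-KO range in the other 15 (37.5%, against 44.1%). The difference of FF4 from FF1 and FF2 was largest in Cntn2 (-0.85), Kif21b (-0.47) and Dpysl5 (-0.43).

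Against FF4 alone, 0 of the 40 passed in either direction, where 0.31% of all genes tested were higher and 0.0864% lower (limma, 3 libraries against 1, in which the lone library is assumed to vary like CAP1-KO). At an unadjusted p under 0.05, 2 of the 40 were higher, Stmn4 and Clasp2, against 3.28% of all genes tested, and 4 lower, Tubb2a, Map6, Dpysl4 and Kif1a, against 5.04%. The median log2 fold change was -0.025 over the 40 and 0.0022 over all genes tested, with 27 negative and 13 positive. Cntn2 was -0.0092 (95% interval -0.15 to 0.13), Dpysl5 was -0.095 (-0.33 to 0.14) and Kif21b was -0.10 (-0.26 to 0.048). Stmn4 kept most of its size at 0.27 (95% interval 0.12 to 0.42, limma adjusted p = 0.319). Kif1a was -0.23 (-0.43 to -0.036), Map6 was -0.23 (-0.45 to -0.0042) and Clasp2 was 0.16 (0.027 to 0.30). Dpysl4 at -0.20 (-0.34 to -0.059) and Tubb2a at -0.22 (-0.38 to -0.065) were further below 0 than against all Control libraries. These intervals are for single genes and are not adjusted over all genes tested.

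Without FF4, 20 of the 40 were lower and 2 higher, Stmn4 and Clasp2, where 18.9% of all genes tested were lower and 9.36% higher, 28.2% in all (limma adjusted p under 0.05). Cntn2 was -0.86 (adjusted p = 2.66e-05), Kif21b was -0.57 (adjusted p = 0.000127) and Dpysl5 was -0.53 (adjusted p = 0.00116) in that limma fit. Each role but the plus-end regulators and stathmins then had at least 2 lower genes. These were 4 of 8 structural microtubule-associated proteins and doublecortins, 3 of 4 kinesins and 4 of 4 adhesion molecules, among others. Against FF2 alone, whose Xist level was near that of CAP1-KO, 9 of the 40 were lower and 1 higher, Stmn4 (8.53% and 4.51% of all genes tested). Against FF1 alone, whose Xist level was near 0, 7 were lower and 1 higher (8.82% and 3.08%). With the Xist level of each library as a covariate, 0 of the 40 passed in either direction (0.0216% lower and 0.166% higher among all genes tested), with 1 higher and 8 lower at an unadjusted p under 0.05 (limma; 6.73% and 10.8% of all genes tested). In that fit the median log2 fold change was -0.16 over the 40, of which 33 were negative, and -0.014 over all genes tested. Without the covariate these medians were -0.094 and -0.0059. Standard errors were larger with the covariate, 0.28 against 0.21 in Cntn2. The median of the 40 with the covariate lay close to that against FF2 alone, -0.163. Xist was high in every CAP1-KO library and only in FF2 among Control libraries, so group and Xist are poorly separated and the part of Xist was not tested. The X-linked genes Dcx and L1cam differed from FF2 by -0.11 and -0.16 (limma adjusted p = 0.42 and 0.131). These comparisons share the CAP1-KO libraries, so their values are not independent of each other.

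**Figure D5:**
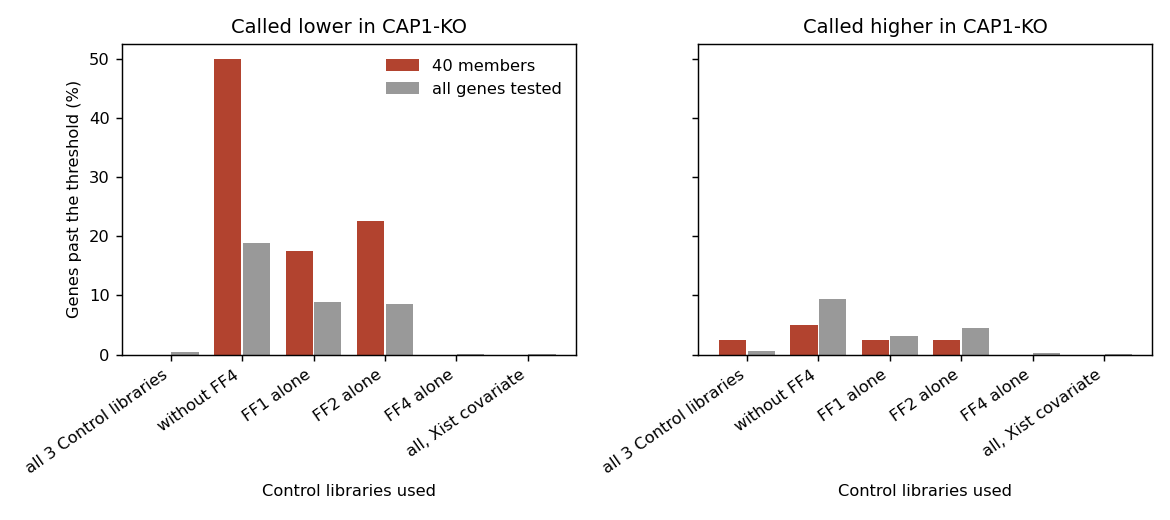
Percent of the 40 genes and of all genes tested that were lower (left) or higher (right) in CAP1-KO at a limma adjusted p under 0.05, by the Control libraries used. Of the 40, 50% were lower without FF4 and 0 were lower with all Control libraries or with FF4 alone.

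Marker lists of neuron types moved with FF4 as well. The summed level of 12 striatal neuron markers was 483, 437 and 440.3 CPM in FCRE3, FCRE4 and FCRE5, against 329, 334 and 498 CPM in FF1, FF2 and FF4. For 8 cortical interneuron markers it was 719, 657 and 661 CPM in CAP1-KO, against 511, 450.1 and 719 CPM in Control. For 8 upper layer neuron markers it was 1262, 1219 and 1326 CPM in CAP1-KO, against 1740.3, 1759.9 and 1173 CPM in Control, and for 8 deep layer markers 1209.6, 1085 and 1186 CPM in CAP1-KO, against 1401, 1445 and 1178 CPM in Control. In these lists FF4 stood with CAP1-KO or beyond it, away from FF1 and FF2. Among the 40 genes, FF4 lay within the CAP1-KO range in Cntn2 and Dpysl5 and just above it in Kif21b. Those genes were picked for their difference of FF4 from FF1 and FF2, so their likeness to these lists follows from that choice. In the same order, 8 pan-neuronal markers summed to 1949, 2155 and 1926 CPM in CAP1-KO, against 2462, 2492 and 2255 CPM in Control, and here every CAP1-KO library was below FF4. No marker of these 5 lists was at 0 in any library. Of their 44 genes, 3 passed in CAP1-KO against Control, all lower, against 0.403% of all genes tested. They were Nefm (-0.70, limma adjusted p = 0.0425), Crym (-0.57, 0.0376) and Ppp1r1b (-0.63, 0.00689). Ppp1r1b is of the striatal list, in which 9 of 12 markers had a positive log2 fold change, with a median of 0.50. The part of these shifts in the values of the 40 genes was not tested.

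Glial, dividing and non-neural cells were summed in the same way. Radial glia markers summed to 1255 to 1303 CPM in CAP1-KO and 1163 to 1282 CPM in Control, and cell cycle genes to 344 to 410.0 CPM in CAP1-KO and 313 to 356 CPM in Control, with 0 of 8 passing in each (limma). At an unadjusted p under 0.05, 0 of the radial glia markers differed and 7 of the cell cycle genes were higher, against 7.74% of all genes tested. All 8 cell cycle genes had a positive log2 fold change, and in all 8 every CAP1-KO library was above FF4, against 28.0% of all genes tested. Against all 3 Control libraries, CAP1-KO was higher without overlap in 2 of the 8, against 11.1% of all genes tested. Choroid plexus markers summed to 52.9 to 115 CPM in CAP1-KO and 1.19 to 5.14 CPM in Control. Meningeal fibroblast markers summed to 59.0, 160 and 150 CPM in FCRE3, FCRE4 and FCRE5, against 53.6 to 60.1 CPM in Control. Microglia markers summed to 47.5 to 61.1 CPM in CAP1-KO and 31.1 to 41.4 CPM in Control, and endothelial markers to 107 to 118 CPM in CAP1-KO and 134 to 152 CPM in Control. In these 4 lists, 1 of the 4 choroid plexus markers tested passed, Ttr, which rose (6.08, limma adjusted p = 0.000103). Of 7 endothelial markers 2 passed, the receptors Flt1 (-0.77, limma adjusted p = 0.0118) and Kdr (-0.40, 0.0462), which fell. None of the 6 meningeal fibroblast markers tested and none of the 7 microglia markers passed. Of all genes tested 0.562% passed higher and 0.403% lower. The choroid plexus markers Kl and Kcnj13 were at 0 in at least 1 library. FCRE4 had the lowest summed level of cell cycle genes among the CAP1-KO libraries. Among the 40 genes it was the highest CAP1-KO library in some, such as Map1a and Gap43, and the lowest in others, such as Tubb5 and Dcx. Genes of either kind were not counted over the 40 or over all genes tested. Some margins were small, as in Map2 at 1622 CPM in FCRE4 and 1620.1 CPM in FCRE3. FCRE4 is 1 library, and a link between these values was not tested. The part of these cells in the values of the 40 genes was not tested.

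The wider microtubule and axon machinery was examined in 6 further lists of 120 genes, of which 118 were tested. None passed in CAP1-KO against Control (limma). At an unadjusted p under 0.05, 3 were higher and 34 lower, where 7.74% and 15.3% of all genes tested were, and 80 of the 118 had a negative log2 fold change, against 51.7%. Without FF4, 52 were lower and 6 higher at an adjusted p under 0.05, where 18.9% and 9.36% of all genes tested were. Other tubulin chains had a median of -0.0051, and the 2 highest in CPM were Tubb4a, at 268 ± 6.2 CPM in CAP1-KO and 309 ± 25 CPM in Control (-0.20, limma adjusted p = 0.139), and Tubb4b, at 88 ± 2.83 CPM in CAP1-KO and 95 ± 3.06 CPM in Control (-0.11). Among folding and modifying enzymes, with a median of -0.062, Atat1, the tubulin acetylase, averaged 322 ± 9.38 CPM in CAP1-KO and 364 ± 39.4 CPM in Control (-0.17), and Vash1, a tubulin carboxypeptidase, averaged 271 ± 13.8 CPM in CAP1-KO and 368 ± 72.3 CPM in Control (-0.42, limma adjusted p = 0.135). The list of other microtubule-associated proteins and severing enzymes, which also held kinase genes, had a median of -0.10. In it Cdk5r1, an activator of the kinase CDK5, averaged 575 ± 2.66 CPM in CAP1-KO and 662 ± 66.2 CPM in Control (-0.20). Gsk3b, a kinase that acts on tau and CRMPs, averaged 364 ± 13 CPM in CAP1-KO and 383 ± 35.9 CPM in Control (-0.070). Further plus-end and minus-end genes had a median of -0.13. Macf1, which links microtubules to actin, averaged 1030.5 ± 35.7 CPM in CAP1-KO and 1087 ± 59.9 CPM in Control (-0.076), and Apc averaged 931 ± 41.9 CPM in CAP1-KO and 975 ± 23.7 CPM in Control (-0.068). Other kinesin and dynein genes had a median of -0.067, with Dync1h1, the dynein heavy chain, at 1373 ± 19.1 CPM in CAP1-KO and 1548 ± 148 CPM in Control (-0.17) and Kif1b at 913 ± 39.1 CPM in CAP1-KO and 984 ± 76.4 CPM in Control (-0.11). The list of other axon adhesion genes, which also held a spectrin, had a median of -0.17. That spectrin, Sptbn1, averaged 842 ± 57.1 CPM in CAP1-KO and 944 ± 41.9 CPM in Control (-0.17). Chl1, a relative of L1cam, averaged 816 ± 12 CPM in CAP1-KO and 961 ± 69.2 CPM in Control (-0.23, limma adjusted p = 0.116).

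Since the series title names SRF, promoters of the set were searched for the CArG box, the sequence SRF binds, on both strands of the 300 bases around the annotated start (RefSeq, GRCm38.p6). Promoters were matched for 25 of the 40 genes, 33 promoters in all, and 0 held a match, against 1.63% of 32851 promoters. No match says only that these letters are not in this window.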

How the data were processed

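Per the labels' protocols, poly(A) RNA was selected from total RNA and made into directional libraries. Per the submitters' processing notes, STAR and edgeR were used with builds GRCm38 and mm10; no versions, counter or annotation were named. The deposited table holds, per the file headers, normalized counts on a log2 scale for each library and, for the authors' own comparison, log2 fold change, an F score, p-value and FDR. Columns were put in groups by genotype name; their numbers are not the replicate numbers of the labels.

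Removing the shared offset of 0.0584 CPM left whole multiples of 1 read in each library (100% within 0.01 read). Genes averaging 1 CPM or more were tested with limma 3.58.1 in R 4.3.3 (intensity trend, log2(CPM + 1), no covariate), with Benjamini-Hochberg adjustment over 13885 genes and a threshold of 0.05. Fold changes on this scale understate low genes; all 40 members averaged at least 69.3 CPM. An exact permutation of 3 against 3 cannot go below p = 0.1. RPKM used the union of exons in GENCODE M21. The fit was also run on simulated reads, whose outcome is not reported here. Figures used matplotlib 3.10.9 in Python 3.11.15. No pair of replicates fell within sampling noise.

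All members are named, with up to 4 passing genes of each further list or its 2 most abundant; members, lists and alternatives were chosen with earlier results of these data known. The comparison with FF1 alone was added after seeing the data.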

Additional observations from a re-analysis of the deposited data

How the results depend on the processing

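Across the 16 alternatives run, the median log2 fold change of the 40 genes ran from -0.163 (FF2 alone) to -0.025 (FF4 alone), against -0.094 in the main fit. These moves were less than 0.072, the larger SD of the library medians within a group. That SD was of the Control libraries and was widened by FF4 itself (-0.080, against 0.031 in FF1 and 0.055 in FF2), so it is a lenient measure. The counts of 1 higher and 0 lower were the same under limma-voom, median-of-ratios size factors, total-read scaling, the deposited log2 values and a pseudocount of 0.1. With no filter on low values 0 were higher. Leaving out 1 library gave 0 to 2 higher and 0 to 20 lower, the largest count of each without FF4, and without FCRE4 2 were lower, Map1a and Map6. The Xist covariate and FF4 alone gave 0 higher, FF2 alone 9 lower and FF1 alone 7 lower; the causes were not tested. Scaling to total reads raised the median of all genes by 0.062, and made Tubb5 (0.0035), Tuba1b (0.013), Map2 (0.046), Dcx (0.057) and Pafah1b1 (0.046) positive. Against FF4 alone the sign turned for Tubb5 (0.041), Map1b (0.051), Map2 (0.017), Map4 (0.041), Dcx (0.11), Stmn1 (0.081), Stmn2 (-0.025), Stmn3 (-0.035), Dpysl2 (0.036), Dpysl3 (0.022), Clasp1 (0.11), Ndel1 (-0.0035) and Gap43 (-0.15). Other reversals were of values near 0. Marcks turned negative without FCRE3 (-0.029), without FF4 (-0.019), with the Xist covariate (-0.0093), against FF2 alone (-0.013) and against FF1 alone (-0.026). Stmn2 turned with median-of-ratios factors (-0.0013), without FCRE4 (-0.031), without FF1 (-0.0042) and without FF2 (-0.0079). Dcx turned without FCRE4 (0.032) and without FF2 (0.041), where Map2 was 0.00028. Gap43 turned without FCRE4 (-0.020) and without FF1 (-0.022), and Pafah1b1 against FF1 alone (0.0014). No paired analysis was possible because the library names carry none of the replicate numbers of the labels and the groups share fewer than 2 numbers. Precision rested on 31.2 to 37.3 reads per CPM and on 3 libraries a group.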

Other observations

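Of the 120 further microtubule and axon genes, the lowest adjusted p belonged to Tacc1, which encodes a centrosome and plus-end protein. It averaged 48.6 ± 0.47 CPM in CAP1-KO and 40.1 ± 2 CPM in Control (log2 fold change 0.27, limma adjusted p = 0.0643), and like Clasp2 and Mapre1 it was above Control in every CAP1-KO library. The most negative log2 fold change among them was that of Cdk5r2, which encodes an activator of the kinase CDK5 and averaged 52.2 ± 13.2 CPM in CAP1-KO and 75.5 ± 4.28 CPM in Control (-0.55, limma adjusted p = 0.111). Both genes were chosen after their values were seen, and neither passed the test.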
